A study of Mus musculus with 3 samples.

Results

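The 9 genes described here encode transcription factors and cofactors grouped under the name of otic and prosensory factors. The prosensory patch is the part of the otic vesicle from which hair cells and supporting cells arise. They are Sox2, Sox9, Sox10, Gata2, Gata3, Eya1, Prox1, Pax2 and Lmo3, taken by symbol from the gene table of the deposited matrices, and they make up 9 of its 31053 genes. Their levels, the shares of cells that hold them and their co-detection were read in single cells of mouse cochlear organoids, balls of cells that cochlear progenitors form in culture.

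All cells came from C57BL/6 organoids that started from progenitors carrying the surface receptor Lgr5. The expansion group was kept in a DMEM/F-12 medium with N2, B27, EGF, bFGF, IGF, CHIR99021, Y-27632 and LPA, and was taken at passage 2 on day 8. The day 5 and day 25 groups were first expanded in the same way and then moved to a medium with bFGF and BDNF, the morphogen Shh, A83-01 and RA, and, up to day 5 alone, LY4115775. Each group was 1 library of sorted living cells, so nothing separates a group from its library, and no test between groups was possible. The number of animals and cultures behind a library is not given in the sources used here.

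In the embryonic inner ear, Pax2, Eya1, Sox9 and Gata3 are among the early regulators of the otic placode and vesicle. Sox2 marks the prosensory domain and stays on in supporting cells, while hair cells lose it as they mature. Sox9 and Sox10 are SoxE factors of the otic epithelium and later of supporting cells, and Sox10 is also a factor of neural crest, glia and melanocytes. Prox1 is a homeobox factor of supporting cells and, for a time, of young hair cells.

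After filtering, 25300 expansion cells, 13239 day 5 cells and 6139 day 25 cells were left. Their median depths were 4585, 5832 and 8483 transcripts (unique molecular identifiers, UMIs) per cell. Called doublets were left out, and more doublets were expected than were called. Pairs of libraries shared 105, 42 and 20 cell barcodes, and without them all 55 member differences counted below stayed past their bound. Cells were put in 3 classes that do not overlap. Epcam-positive cells, with at least 2 UMIs of the epithelial adhesion gene Epcam and none of the hair cell factor Pou4f3, and outside the Otor-high class, numbered 14200, 6417 and 3507. Pou4f3-positive cells, with at least 2 Pou4f3 UMIs, numbered 120, 309 and 1541. Otor-high cells, with at least 10 UMIs in 10000 and at least 5 UMIs of the otic mesenchyme gene Otor, numbered 4150, 4677 and 485. Epcam, Pou4f3 and Otor set the classes, so their own levels are no result.

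The class names were read against marker lists. Pou4f3, Epcam and Otor are each in the list of their own class, so every count below includes a marker fixed by the choice of cells. Pou4f3-positive cells held 12, 12 and 13 of 13 hair cell markers at 20 CPM (UMIs per 1000000 UMIs of the class) or more in expansion, on day 5 and on day 25. Epcam-positive cells held 8, 7 and 8 of 8 epithelial markers at that level. Otor-high cells held 5, 6 and 9 of 10 otic mesenchyme markers at that level. Of the markers so counted, Dcn was higher in Epcam-positive cells, at 392, 1245 and 422 CPM against 24.2, 73.8 and 25.7 CPM. Pdgfra, counted on days 5 and 25, was higher in Pou4f3-positive cells, at 49.6 and 95.8 CPM against 24.6 and 70.3 CPM. Col1a1 had no UMI in Otor-high cells in expansion and on day 25. These cells therefore keep the name of the gene that chose them. Glial and melanocyte sources of Sox10 were also looked at. Of 7 glial genes, Sox10 itself and the receptor gene Erbb3 were the only ones at 20 CPM in Epcam-positive cells. Foxd3 had no UMI in any of the 3 classes in any library. The melanocyte list summed to at most 16.9 CPM in any class.

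Levels are sums of UMIs over the cells of a class in CPM, with exact 95% Poisson or binomial intervals in brackets, which cover counting error only. A difference was counted from a 2-fold ratio of CPM + 1 where the gene reached 20 CPM in either sum. Shares of cells were taken after drawing 2000 UMIs from each cell, with shallower cells left out, since deeper cells show more genes. UMI levels are compared between classes and libraries for the same gene, never between genes.

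In the epithelial cells, 3 members rose from expansion to day 5 and the other 6 did not pass the bound. Sox2, Gata2 and Gata3 were the 3, of 6 members tested, and 25% of all genes tested were past the bound in that comparison. Sox2 (ENSMUSG00000074637, chr3:34650405-34652461, plus strand, GRCm38) encodes the SoxB1 factor of the prosensory domain. Its level in Epcam-positive cells was 2.93 CPM in expansion, 57.1 CPM on day 5 and 30.4 CPM on day 25. Day 5 stood 19.5-fold [17.6 to 21.7] above expansion, and day 25 stood 10.4-fold [9.25 to 11.6] above it. A Sox2 UMI was seen in 0.575%, 9.18% and 5.30% of Epcam-positive cells at equal depth, and in 2.49%, 26.8% and 19.9% without thinning. In Otor-high cells, where the gene stayed under 5 CPM, the thinned shares were 0.0247%, 0.824% and 0.417%. Median depths were 6261, 6482 and 8996 UMIs in the Epcam-positive cells and 4189, 6053 and 7552 in the Otor-high cells.

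Gata2 (ENSMUSG00000015053, chr6:88193891-88207032, plus strand) encodes a zinc finger factor of the otic epithelium. It showed the largest fold of the 9 in these cells among members past the bound. Its level was 3.24 CPM in expansion, 118 CPM on day 5 and 68.7 CPM on day 25, which put day 5 at 36.2-fold [32.9 to 40.0] and day 25 at 21.2-fold [19.1 to 23.5] of expansion. The thinned shares of cells were 0.662%, 18.6% and 10.1%, against 0.419%, 2.13% and 0.625% in Otor-high cells. The unthinned shares were 2.68%, 47.9% and 27.9%.

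Gata3 (ENSMUSG00000015619, chr2:9857078-9890034, minus strand), a zinc finger gene whose haploinsufficiency causes deafness, was seen in most epithelial cells on day 5. Its level was 88.7 CPM in expansion, 750 CPM on day 5 and 153 CPM on day 25. A Gata3 UMI was seen in 13.3%, 68.0% and 23.9% of Epcam-positive cells, and in 1.80%, 7.76% and 1.04% of Otor-high cells. The unthinned shares in Epcam-positive cells were 41.3%, 89.7% and 60.8%. Day 5 was 8.45-fold [8.29 to 8.62] above expansion, and day 25 was 4.90-fold [4.78 to 5.02] below day 5. Cells in which these genes were seen also held more of them on day 5 than in expansion. Epcam-positive cells with Gata3 held 1.98, 11.4 and 3.38 Gata3 UMIs on average without thinning, those with Sox2 held 1.08, 2.90 and 2.05 Sox2 UMIs, and those with Gata2 held 1.12, 3.34 and 3.32 Gata2 UMIs. The gene 9230102O04Rik overlaps Gata3 on the same strand and was counted at 8.33, 150 and 48.1 CPM over all cells, so the split of reads in the shared stretch is uncertain.

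The 250 bases before a RefSeq start of each of these 3 genes are shown because the genes rose together on day 5. The RefSeq starts of Sox2 and Gata3 differ from the gene positions given above, and the Gata3 window lies inside the Gata3 gene. RefSeq windows (GRCm38.p6) were found for 6 of the 9 members. Capitals mark the letters ACAAAG or its reverse complement, a core that Sox factors can bind. Bases run 5′ to 3′ on the strand of the gene.
Sox2 chr3:34649745-34649994, plus strand: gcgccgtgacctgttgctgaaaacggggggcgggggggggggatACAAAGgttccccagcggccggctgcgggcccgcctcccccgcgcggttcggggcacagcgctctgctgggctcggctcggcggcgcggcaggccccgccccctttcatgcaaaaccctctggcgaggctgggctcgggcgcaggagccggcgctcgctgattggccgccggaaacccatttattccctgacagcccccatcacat
Gata2 chr6:88193641-88193890, plus strand: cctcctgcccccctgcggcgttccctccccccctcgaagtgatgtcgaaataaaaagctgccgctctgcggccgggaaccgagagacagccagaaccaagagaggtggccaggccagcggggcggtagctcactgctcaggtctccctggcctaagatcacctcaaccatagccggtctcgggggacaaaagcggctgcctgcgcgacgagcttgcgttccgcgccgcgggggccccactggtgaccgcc
Gata3 chr2:9878601-9878850, minus strand: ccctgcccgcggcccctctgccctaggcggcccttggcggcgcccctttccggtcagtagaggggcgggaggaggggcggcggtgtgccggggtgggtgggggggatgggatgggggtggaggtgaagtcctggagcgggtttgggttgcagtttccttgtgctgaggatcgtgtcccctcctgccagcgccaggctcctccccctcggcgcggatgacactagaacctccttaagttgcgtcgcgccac
The search took both strands. Its strings were ACAAAG and, as a second Sox core, ACAATG. For GATA factors it was GATAA, and for basic helix-loop-helix factors it was CAGCTG. Over the 3 windows 1 match was found. It was the ACAAAG of the Sox2 window, a string found in 16.5% of 32851 promoter windows of this length. The Gata2 and Gata3 windows printed held none of the 4 strings. Another Gata2 window, chr6:88198414-88198663, is not printed and held none of them either. Of all promoter windows, 22.6% held GATAA, 10.7% held ACAATG and 13.0% held CAGCTG. GC content was 72.0% in the Sox2 window, 67.2% in the Gata2 window and 70.0% in the Gata3 window, against a median of 52.4% over all windows.

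The other members kept within 2-fold in the epithelium over time or stayed at few UMIs. Sox9 (ENSMUSG00000000567, chr11:112782224-112787760, plus strand) was at 227, 182 and 315 CPM in Epcam-positive cells and was seen in 31.8%, 25.5% and 38.0% of them. Sox10 (ENSMUSG00000033006, chr15:79154908-79165240, minus strand) was at 135, 231 and 147 CPM, highest on day 5, and was seen in 22%, 33.5% and 22.7% of these cells. Eya1 (ENSMUSG00000025932, chr1:14168954-14310235, minus strand), a cofactor and phosphatase that works with sine oculis homeobox factors, was at 104, 76.9 and 116 CPM, lowest on day 5, in 17.7%, 14.2% and 19.7% of them. These 3 moved by at most 1.73-fold between neighbouring groups, Sox9 from day 5 to day 25.

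Prox1, Pax2 and Lmo3 were rare in the epithelium. Prox1 (ENSMUSG00000010175, chr1:190118035-190170714, minus strand) was at 1.18, 0.596 and 1.85 CPM in Epcam-positive cells. Pax2 (ENSMUSG00000004231, chr19:44756045-44837871, plus strand), a paired box factor of the early otic vesicle, had 14, 13 and 22 UMIs in all, or 0.107, 0.149 and 0.467 CPM. Lmo3 (ENSMUSG00000030226, chr6:138362918-138581968, minus strand), a LIM-only protein that bridges transcription complexes, had 5, 156 and 375 UMIs in the Epcam-positive cells of the 3 libraries. Its level of 7.96 CPM on day 25 was 208-fold [88.3 to 644] above that in expansion, yet under the 20 CPM bound for counting.

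**Figure D1:**
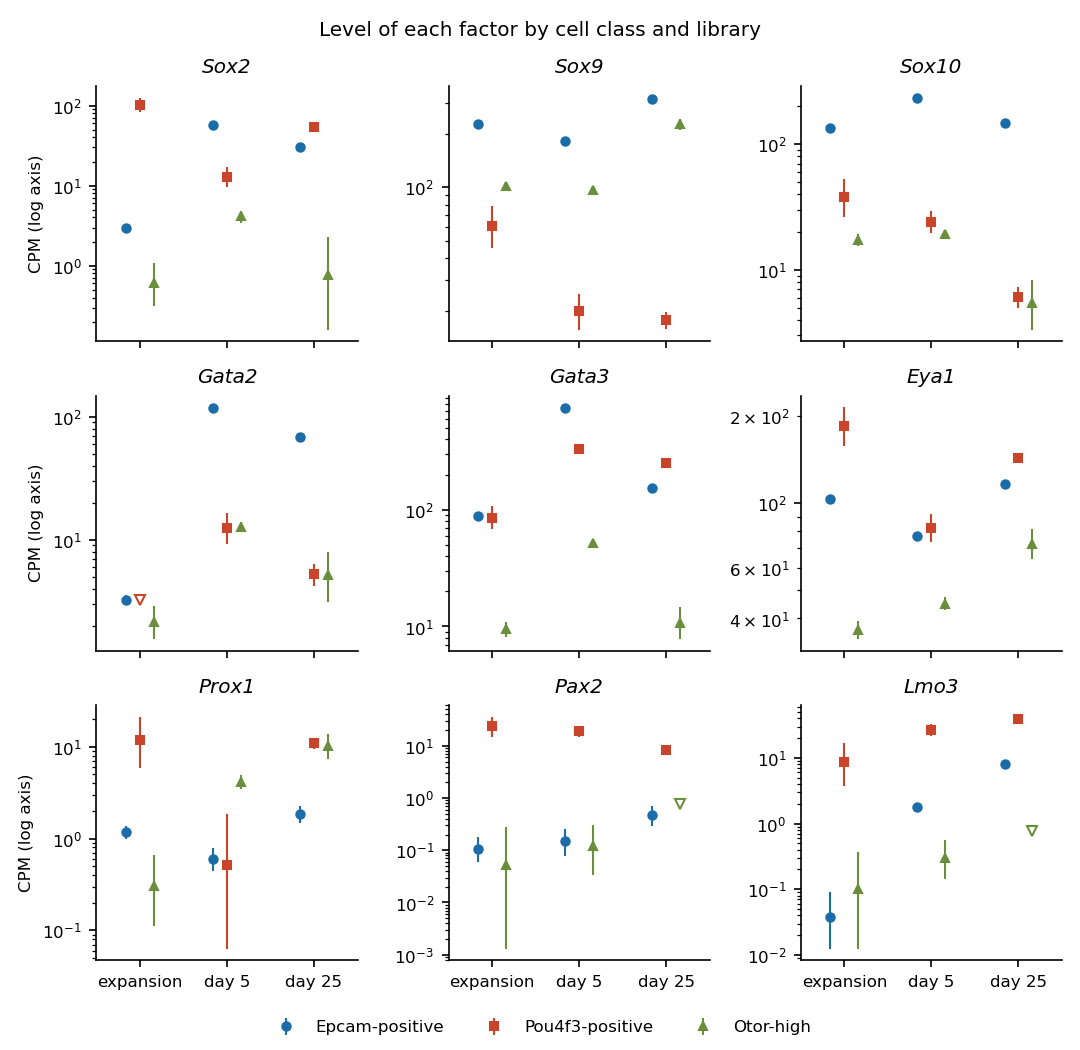
CPM (log axis) of each of the 9 factors in expansion, on day 5 and on day 25, in Epcam-positive cells (circles), Pou4f3-positive cells (squares) and Otor-high cells (triangles), 1 library per group, with 95% Poisson intervals as bars; open triangles give the level of 3 UMIs where none was found. In the Epcam-positive cells Sox2, Gata2 and Gata3 stand far higher on day 5 than in expansion, while Pax2 and Lmo3 are highest in Pou4f3-positive cells in every library.

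From day 5 to day 25, 1 of 6 members tested passed the bound in Epcam-positive cells, Gata3, where 24.1% of all genes tested did. Sox2 was 1.88-fold [1.77 to 2.00] lower on day 25 than on day 5, and TMM or median of ratios scaling carried that difference past the bound (log2 -1.09 and -1.04, against -0.89). Between expansion and day 25, Sox2 and Gata2 passed the bound, of 6 members tested, where 38.9% of all genes tested did. Gata3 was then 1.72-fold [1.67 to 1.78] above expansion. Over all kept cells, 6 members were tested in each comparison. Of these, 3 were past the bound on day 5 against expansion (background 23.1%), 1 on day 25 against day 5 (27%) and 3 on day 25 against expansion (42.8%). Gata3 was among these last 3, and its call was lost with TMM and with median of ratios scaling (log2 0.61 with both, in place of 1.20).

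Other genes of the same programmes moved in part with the members in Epcam-positive cells. Of 17 paralogues of the members, 3 were tested from expansion to day 5 and none passed the bound. In that comparison 25% of all genes tested passed it. Of 32 other otic placode and vesicle factors, 12 were tested, of which 3 rose and 1 fell. Zfpm1, a partner of GATA factors, went from 27.9 to 126 CPM, and the homeobox gene Irx3 from 105 to 231 CPM. The LIM-binding gene Ldb2 went from 0.13 to 23.1 CPM, and Hmx3, a vestibular homeobox gene, fell from 22.3 to 2.19 CPM. Of 20 prosensory and supporting cell regulators, 14 were tested, of which 8 rose and 4 fell. The BMP target genes Id3 and Id1 rose 6.70-fold and 5.07-fold, and Bmp4 rose 6.84-fold to 57.3 CPM. The Notch ligand Jag1 fell from 95.6 to 3.15 CPM, the FGF target Etv4 from 91.7 to 16 CPM and the Notch target Hes1 from 42.9 to 8.08 CPM.

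By day 25, Id3 and Bmp4 had fallen again in Epcam-positive cells, 4.61-fold and 3.18-fold from day 5. Of the 20 regulators 11 were tested, with 1 higher and 4 lower, where 24.1% of all genes tested passed the bound. Hmx3 returned to 27.2 CPM, and the homeobox gene Six2 was 2.46-fold higher. Of 13 vesicle factors tested, 3 rose and 1 fell.

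Most epithelial cells held UMIs of few members at equal depth, and day 5 stood apart. Cells with UMIs of at least 3 of the 9 made up 3.49% of Epcam-positive cells in expansion, 22.2% on day 5 and 10.5% on day 25. Cells with none made up 38.1%, 12.1% and 25.3%. The most members seen in 1 cell were 5, 7 and 6. For 36 pairs, the number of cells with both genes was set against the product of the 2 shares, and pairs with a product of at least 10 cells were read.

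In Epcam-positive cells most of the 14, 16 and 16 pairs that could be read lay near that product. The ratio of observed to product had a median of 1.05 in expansion, 1.02 on day 5 and 1.08 on day 25. Its range was 0.787 to 1.24, 0.861 to 1.45 and 0.556 to 1.37. Sox2 and Gata2 gave both the highest ratio on day 5, with 153 cells against 105, and the lowest on day 25, with 10 cells against 18.0. On day 5, 27.1% [23.5 to 31.0] of Sox2-detected cells held Gata2 against 17.8% of the rest. On day 25 it was 5.62% [2.73 to 10.1] against 10.4%. At 4000 UMIs per cell the ratios of this pair were 1.40, from 351 cells, and 0.599, from 30 cells. The pair of Gata2 and Gata3 had ratios of 1.17 on day 5 and 1.37 on day 25. The pairs of Sox9 with Sox10 had ratios of 1.07, 1.04 and 0.96. At 4000 UMIs per cell, 21 pairs could be read on day 25. Their ratios ran from 0.599, for Sox2 with Gata2, to 3.36, for another pair, with a median of 1.02. That other pair was the only one above 1.5.

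**Figure D2:**
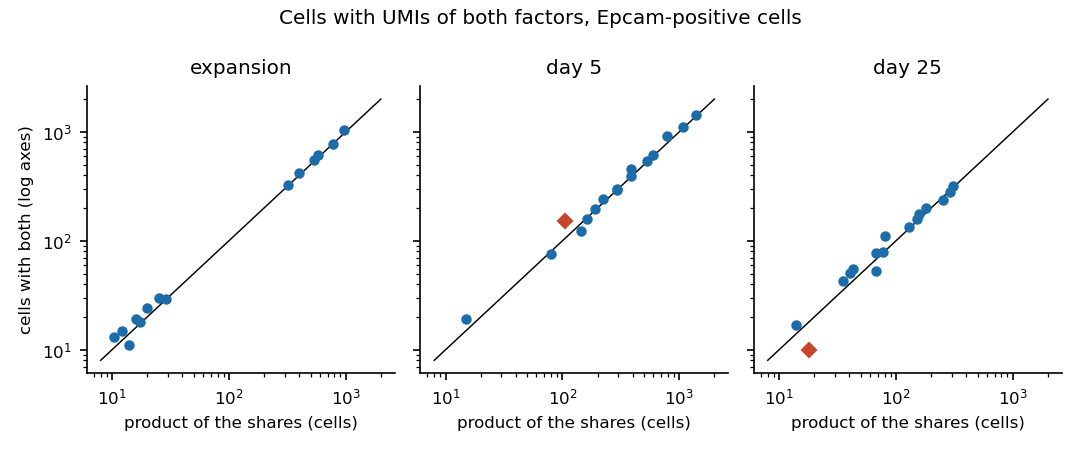
Number of Epcam-positive cells with UMIs of both genes of a pair (y) against the number given by the product of their shares (x), both on log axes, at 2000 UMIs per cell, with the line of equality; each point is 1 pair of members and the diamond is Sox2 with Gata2. Most pairs lie near the line, and the diamond lies above it on day 5 (153 against 105 cells) and below it on day 25 (10 against 18.0 cells).

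On day 25, Sox2 and Gata2 had opposite patterns by Epyc and by Tectb, 2 landmark genes of the epithelium. Tectb encodes a tectorial membrane protein, Epyc is a proteoglycan gene of the developing cochlear floor, and Bmp4 marks its outer, lateral side in the embryo. On day 25, Gata2 was seen in 18.0% [16.1 to 20.0] of Epcam-positive cells with an Epyc UMI and in 3.28% [2.51 to 4.21] of those without. Sox2 was seen in 3.72% [2.84 to 4.78] and 6.68% [5.57 to 7.93] of the same groups. By Tectb the order was the other way. Sox2 was in 9.66% [7.16 to 12.7] of Tectb-detected cells and 4.58% [3.85 to 5.41] of the rest, and Gata2 in 5.67% [3.77 to 8.15] and 10.8% [9.72 to 12].

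On day 5, Sox2 went with Tectb, at 21.8% [16.3 to 28.3] against 8.77% [8.06 to 9.51]. It was in 6.74% of cells with Epyc and 20.6% of those without. Gata2 was in 17.9% [16.8 to 18.9] of cells with Epyc and 22.3% [19.9 to 24.9] of those without, and its shares by Tectb, 17.8% [12.7 to 23.8] and 18.7% [17.7 to 19.7], had overlapping intervals. By Bmp4, Gata2 was higher on day 5, at 30.4% [26.6 to 34.5] of Bmp4-detected cells against 17.5% [16.5 to 18.5] of the rest. Sox2 was in 11.3% [8.77 to 14.2] of the Bmp4-detected cells and 8.98% [8.24 to 9.76] of the rest. Summed over Epcam-positive cells with at least 2 Bmp4 UMIs and those with none, both genes were higher with Bmp4, Sox2 2.21-fold [2.07 to 2.35] and Gata2 2.38-fold [2.28 to 2.49]. Those cells had median depths of 21841 and 5858 UMIs. On day 25 the shares of cells with Gata2 were 20.9% [12.9 to 31.0], from 18 of 86 cells, and 9.82% [8.82 to 10.9]. Lmo3 on day 25 was in 1.80% of Epyc-detected cells and 0.501% of the others. Among Epcam-positive cells with at least 2 Bmp4 UMIs, Lmo3 was at 42.0 CPM, and it was at 4.07 CPM where Bmp4 had none. These cells differed in depth, with medians of 18997.5 and 8754 UMIs. Free RNA in droplets can add UMIs to any cell, and its part in these shares was not tested.

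**Figure D3:**
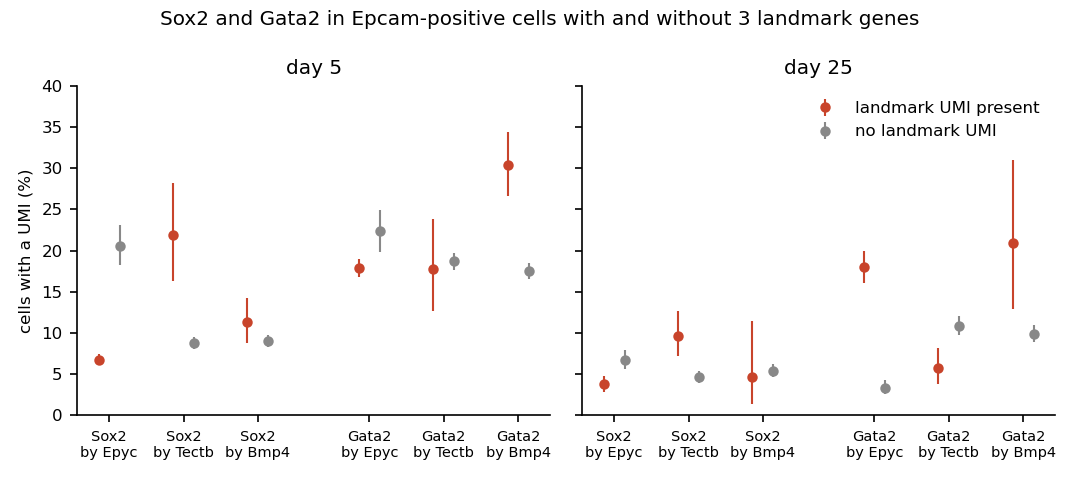
Share of Epcam-positive cells (percent, y) with a Sox2 or Gata2 UMI among cells with and without a UMI of Epyc, Tectb or Bmp4, on day 5 and day 25, at 2000 UMIs per cell, with exact 95% binomial intervals. On day 25 Gata2 is at 18.0% with Epyc and 3.28% without it, while Sox2 is at 9.66% with Tectb and 4.58% without it.

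In Pou4f3-positive cells the members had another order over time. Sox2 was at 103 CPM [83.2 to 126] in expansion, 13.0 CPM [9.63 to 17.1] on day 5 and 54.0 CPM [50.6 to 57.5] on day 25, lowest in the group where the epithelium had most. The sums rest on 95, 50 and 980 UMIs. Day 5 was 7.93-fold [5.57 to 11.4] below expansion, and day 25 was 4.16-fold [3.13 to 5.64] above day 5. At equal depth a Sox2 UMI was in 21.6% of 116 cells, 2.33% of 258 and 9.02% of 1496. With a threshold of 1 Pou4f3 UMI, which takes in 217, 656 and 1843 cells, the day 25 difference from day 5 was under the bound (log2 0.90). With called doublets kept, the day 5 level of Sox2 was 25.2 CPM in place of 13.0, and the log2 differences were -1.61 from expansion to day 5 and 1.04 from day 5 to day 25, in place of -2.89 and 1.98.

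Gata3 and Eya1 were held by Pou4f3-positive cells at every time. Gata3 was at 85.6, 328 and 250 CPM, 3.84-fold [3.06 to 4.88] above expansion on day 5 and 2.92-fold [2.34 to 3.70] above it on day 25. Its thinned shares were 13.8%, 38.4% and 34.4%. Eya1 was at 185, 82.5 and 143 CPM, 2.24-fold [1.85 to 2.71] lower on day 5 than in expansion. Lmo3 was at 8.66, 26.7 and 39.3 CPM, from 8, 103 and 714 UMIs, and stood 4.54-fold [2.29 to 10.6] above expansion on day 25. Pax2 was at 23.8, 19.2 and 8.20 CPM, from 22, 74 and 149 UMIs. Prox1 had 11, 2 and 199 UMIs, or 11.9, 0.519 and 11.0 CPM.

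The SoxE genes and Gata2 were low in Pou4f3-positive cells. Sox9 was at 60.6, 20.0 and 17.8 CPM and Sox10 at 37.9, 24.1 and 6.06 CPM. Gata2 had no UMI in expansion, where up to 3.25 CPM can be missed at 3 UMIs, and was at 12.5 and 5.23 CPM on days 5 and 25. From expansion to day 5, 5 of 7 members tested passed the bound (24.5% of all genes tested). Gata3 and Lmo3 were higher and Sox2, Sox9 and Eya1 lower. With 1 Pou4f3 UMI as threshold the Sox9 (log2 -0.16), Eya1 (log2 -0.95) and Lmo3 calls (log2 1.53, under 20 CPM) were lost. From day 5 to day 25, 2 of 5 tested passed it (27.5%), Sox2 higher and Sox10 3.98-fold [2.99 to 5.30] lower. With at least 3 Pou4f3 UMIs, which leaves 71, 220 and 1332 cells, the Sox10 difference was under the bound (log2 -1.35), since its level was then under 20 CPM in both sums. From expansion to day 25, 5 of 7 tested passed it (41%), with Gata3 and Lmo3 higher and Sox9, Sox10 and Pax2 lower. The lower Pax2 call was lost with doublets kept (log2 -1.22) and at 10% mitochondrial UMIs (log2 -0.94), as well as with 1 UMI as threshold (log2 -1.03). Sox2, at 1.91-fold [1.53 to 2.36] lower, passed the bound with TMM scaling (log2 -1.05) and with median of ratios scaling (log2 -1.08). The same Sox2 difference also passed it at 10% mitochondrial UMIs (log2 -1.27) and with at least 3 Pou4f3 UMIs (log2 -1.11).

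Within each library, Pou4f3-positive cells were then compared with Epcam-positive cells. Of the Pou4f3-positive cells, 51.7%, 51.5% and 72.0% also held at least 2 Epcam UMIs, so the comparison is not one of cells with and without Epcam. Pax2 and Lmo3 were higher in the Pou4f3-positive cells in all 3 libraries, and Sox9 and Sox10 were lower in all 3. In expansion 4 of 6 members tested passed the bound (26.3% of all genes tested), on day 5 6 of 7 (38%) and on day 25 4 of 7 (38.7%). Pax2 was 222-fold [109 to 470] higher in expansion, 129-fold [71.0 to 253] on day 5 and 17.6-fold [11.2 to 28.9] on day 25, of which the first passed the 20 CPM filter. It rests there on 22 UMIs, and the call was lost with doublets kept, at 10% mitochondrial UMIs and with 1 UMI as threshold, where the level was under 20 CPM. Lmo3 was 15.0-fold [11.5 to 19.3] higher on day 5 and 4.94-fold [4.36 to 5.62] on day 25, past the bound both times, but under 20 CPM on day 5 with 1 UMI as threshold. In expansion it was at 8.66 against 0.0383 CPM, under the filter.

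Sox2 changed sides between libraries. It was 35.1-fold [27.7 to 44.1] higher in Pou4f3-positive cells in expansion, 4.40-fold [3.33 to 5.94] lower on day 5, and 1.78-fold [1.64 to 1.93] higher on day 25, under the bound. The day 5 difference was smaller with doublets kept (log2 -1.15, in place of -2.06) and with 1 UMI as threshold (log2 -1.03). Gata3 had a ratio of 0.964 [0.763 to 1.20] in expansion, was 2.28-fold [2.16 to 2.42] lower on day 5, and was 1.63-fold [1.57 to 1.70] higher on day 25. The day 5 call of Gata3 was lost with doublets kept (log2 -0.89) and with 1 UMI as threshold (log2 -0.50). Eya1 was within 2-fold in all 3 libraries, with ratios of 1.79, 1.07 and 1.23. Prox1 was 10.1-fold [4.94 to 18.6] and 5.94-fold [4.59 to 7.73] higher in expansion and on day 25, at levels under 20 CPM.

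Sox9 was 3.75-fold, 9.13-fold and 17.7-fold lower in Pou4f3-positive cells in the 3 libraries, and Sox10 was 3.55-fold, 9.58-fold and 24.2-fold lower. Gata2 was 9.43-fold lower on day 5 and 13.1-fold lower on day 25. The 7 epithelial genes other than Epcam were 1.44-fold, 1.62-fold and 7.12-fold lower as a sum in the same cells, and did not move alike. The claudin gene Cldn7 was 5.21-fold, 10.3-fold and 11.0-fold lower. The vesicle transport gene Rab25 was higher in Pou4f3-positive cells in all 3 libraries, and the cadherin gene Cdh1 in expansion and on day 5. Epyc, which is outside that list, was 6.85-fold, 7.93-fold and 22-fold lower. The part of free RNA in the levels of Sox9, Sox10 and Gata2 was not tested. With called doublets kept, the day 5 levels of Sox9, Sox10 and Gata2 in Pou4f3-positive cells were 40.5, 48.3 and 34.8 CPM, and that of Sox9 in expansion was 104 CPM. With 1 Pou4f3 UMI as threshold they were 108, 121 and 58.0 CPM, and the Sox9 and Sox10 calls of expansion and day 5 were lost. On day 25 the Sox9 and Sox10 differences were smaller with doublets kept (log2 -3.38 and -3.66, in place of -4.07 and -4.39) and with 1 UMI as threshold (log2 -2.84 and -2.90).

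**Figure D4:**
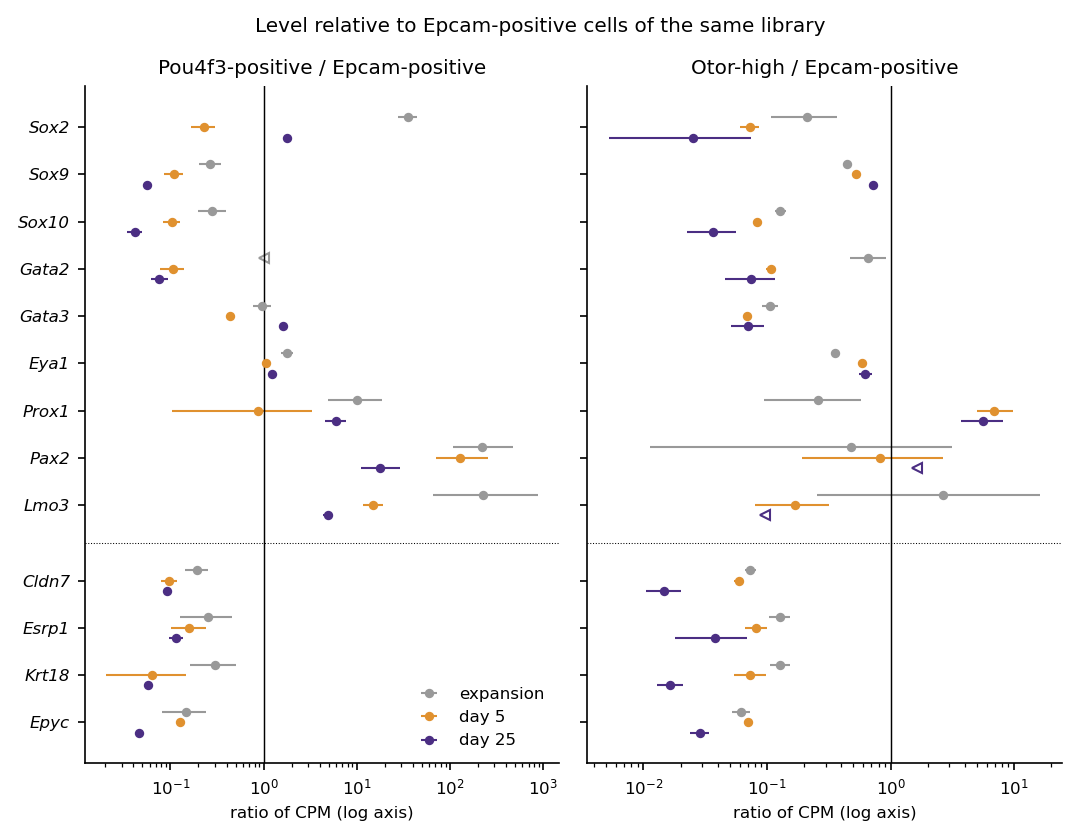
Ratio of CPM (x, log axis) of Pou4f3-positive (left) and Otor-high cells (right) to Epcam-positive cells of the same library, with exact 95% intervals. The 9 factors are shown and, under the dotted line, 4 other genes (Cldn7, Esrp1, Krt18 and Epyc). Open triangles give the ratio at 3 UMIs where none was found. In the left panel Sox9 and Sox10 lie below 1 in all 3 libraries and Gata2 on days 5 and 25, and Pax2 and Lmo3 lie above 1 in all 3 libraries. On the right Sox9 and Eya1 lie closer to 1 than the 4 other genes shown. The epithelial genes Rab25, higher in Pou4f3-positive cells in all 3 libraries, and Cdh1, higher in expansion and on day 5, are not shown.

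Day 25 Pou4f3-positive cells were read further by Slc26a5, the motor protein gene of outer hair cells. Its UMIs were in 637 of 1496 Pou4f3-positive cells at equal depth. Prox1 was seen in 3.77% [2.43 to 5.55] of cells with Slc26a5 and 1.16% [0.560 to 2.13] of those without. Gata3 was seen in 40.3% [36.5 to 44.3] and 30% [27.0 to 33.2], and Eya1 in 26.1% [22.7 to 29.7] and 18.0% [15.5 to 20.8]. Sox2 was seen in 9.42% and 8.73%, with intervals that overlap. Sox9 was seen in 6 and 21 cells, or 0.942% [0.346 to 2.04] and 2.44% [1.52 to 3.71]. In this class the pair of Sox2 and Eya1 had the highest co-detection ratio of 6 pairs that could be read, 1.45, from 42 cells.

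The other genes of the programmes were compared between Pou4f3-positive and Epcam-positive cells. Of all genes tested, 38% passed the bound in that comparison on day 5 and 38.7% on day 25. Of the 20 prosensory and supporting cell regulators, 0 were higher and 8 lower in Pou4f3-positive than in Epcam-positive cells on day 5, of 10 tested. On day 25, 2 were higher and 8 lower, of 12 tested. The receptor gene Notch1 was 8.90-fold and 35.7-fold lower, and Id3 6.72-fold and 16.1-fold lower. Jag1 was 4.46-fold higher on day 25, at 39.0 CPM. Of the 32 otic factors, 1 was higher and 5 lower on day 5, of 12 tested, and 5 higher and 6 lower on day 25, of 14 tested. Dach1, a partner of the Eya family, was 6.06-fold and 12.3-fold higher, Six4 was 5.11-fold higher on day 25, and Irx3 was 8.48-fold and 24.0-fold lower. Among 17 paralogues, Lmo1 was 11.4-fold higher on day 5 and Eya4 2.15-fold higher on day 25, while the SoxB gene Sox21 was 8.34-fold and 18.6-fold lower.

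Otor-high cells held Sox9 and Eya1 and little of most other members. Sox9 was at 102, 96.3 and 226 CPM and was seen in 17.7%, 17.4% and 30.4% of cells at equal depth. Eya1 was at 36.5, 44.9 and 72.7 CPM, in 6.91%, 8.61% and 14.8% of cells. Prox1 was at 0.307, 4.12 and 10.3 CPM, from 6, 136 and 40 UMIs, and stood 6.92-fold [4.99 to 9.72] above Epcam-positive cells on day 5. Pax2 and Lmo3 had no UMI in the Otor-high cells of day 25.

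Between Otor-high and Epcam-positive cells 4 members were tested in expansion, 6 on day 5 and 6 on day 25. In each library 4 members passed the bound as lower in Otor-high than in Epcam-positive cells, with a background of 17.3% in expansion, 21.8% on day 5 and 25.3% on day 25. These were Sox9, Sox10, Gata3 and Eya1 in expansion, and Sox2, Sox10, Gata2 and Gata3 at both later times. On day 5 they were 13.9-fold, 12.1-fold, 9.29-fold and 14.5-fold lower. With called doublets kept these 4 differences were smaller (log2 -2.60, -2.62, -2.41 and -2.72, in place of -3.50, -3.53, -3.12 and -3.83), and Gata3 was at 17.9, 112 and 23.5 CPM in the Otor-high cells of the 3 libraries, in place of 9.47, 51.8 and 10.8. On day 25 Sox10, Gata2 and Gata3 were 27.2-fold, 13.4-fold and 14.2-fold lower (with doublets kept log2 -3.66, -2.63 and -2.65, in place of -4.53, -3.51 and -3.71). The Sox2 sum of the day 25 Otor-high cells was 3 UMIs, and the gene was 39.4-fold [13.5 to 191] lower. The epithelial genes other than Epcam were 9.63-fold, 13.1-fold and 47.9-fold lower as a sum in expansion, on day 5 and on day 25, and 5.11% of the day 5 Otor-high cells held at least 2 Epcam UMIs. The part of free RNA in the levels of Sox10, Gata2, Gata3 and Sox2 in these cells was not tested. Sox9 on day 5 was 1.89-fold [1.82 to 1.97] lower and Eya1 1.71-fold [1.62 to 1.81] lower. In expansion Sox9 was 2.24-fold [2.14 to 2.34] lower, and TMM scaling (log2 -0.99), median of ratios scaling (log2 -0.98) or kept doublets (log2 -0.98) took that call away. On day 5 both scalings carried Sox9 past the bound (log2 -1.04).

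Over time, 1 of 3 members tested passed the bound in Otor-high cells from expansion to day 5 (background 25.8%). From day 5 to day 25 it was 2 of 3 (22%), and from expansion to day 25 it was 1 of 2 (46.7%). Gata3 was 5.47-fold [4.70 to 6.40] higher on day 5 than in expansion and 4.80-fold [3.54 to 6.69] lower on day 25 than on day 5. In Epcam-positive cells its level moved the same way, 8.45-fold and 4.90-fold. Sox9 was 2.35-fold [2.18 to 2.53] higher on day 25 than on day 5 and 2.23-fold [2.06 to 2.41] higher than in expansion. Both Sox9 calls were lost with TMM scaling (log2 0.95 and 0.44) and with median of ratios scaling (log2 0.98 and 0.41), and the second also with doublets kept (log2 0.99). On day 5, cells with an Epcam UMI within this class held Gata3 in 18.4% [14.7 to 22.6] of cases, against 6.72% [5.96 to 7.54] of the others. Sox10 with Gata3 had the highest co-detection ratio there, 1.97, from 24 cells.

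Across the 9 groups of class and library, the leading group differed between members. Sox2 was highest in expansion Pou4f3-positive cells, followed by day 5 Epcam-positive and day 25 Pou4f3-positive cells, whose intervals overlap. Sox9 was highest in day 25 Epcam-positive cells, and expansion Epcam-positive and day 25 Otor-high cells, next in order, overlapped. Sox10, Gata2 and Gata3 were highest in day 5 Epcam-positive cells, and Eya1 in expansion Pou4f3-positive cells. The top groups of Prox1, Pax2 and Lmo3 were Pou4f3-positive, and for Pax2 the leading 2 groups overlapped. For Prox1, expansion Pou4f3-positive, day 25 Pou4f3-positive and day 25 Otor-high cells, at 11.9, 11.0 and 10.3 CPM, had overlapping intervals. Day 5 Pou4f3-positive cells held Prox1 at 0.519 CPM.

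The genes with the most similar profile over 12 profiles of class and library (the 3 classes and all other cells in 3 libraries, 9009 genes compared) were listed for each member. Pax2 was closest to Clstn3 (Pearson r of log2(CPM + 1) 0.997) and Fgf8 (0.995), and Lmo3 to Btc (0.984) and Kcnh8 (0.980). Sox10 was closest to Trpv4 (0.982) and Npnt (0.979), and Gata2 to Padi1 (0.980) and Slc26a4 (0.973). Sox9 was closest to Chsy1 (0.985) and Fat1 (0.966), Gata3 to Hint3 (0.962) and Capg (0.955), Sox2 to Srgap1 (0.938), Eya1 to Ppp6r1 (0.931) and Prox1 to Maf (0.925). Among members, Sox2 with Gata3 had the highest r (0.793) and Sox9 with Pax2 the lowest (-0.78). Profiles of 1 library share its depth, so these values are a description.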

How the data were processed

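Single-cell 3' libraries of 3 groups, 1 library each, were read from the deposited gene-by-barcode matrices of raw UMI counts per cell. Per the submitters' processing notes, the authors used Cell Ranger (3.0.1, 3.0.1 and 3.1.0 per the file headers of the expansion, day 5 and day 25 matrices) and GRCm38, with hg38 also named; the gene models and settings are not given in the sources used here. Cells needed at least 500 genes and at most 20% mitochondrial UMIs. Doublet calls came from a comparison of each cell's neighbours with artificial doublets of its library (over 1500 variable genes and 30 principal components, with 0.8% expected per 1000 barcodes). They marked 9.63%, 4.41% and 2.00% of cells, against 22.4%, 11.1% and 5.01% expected. UMIs were summed by class and library and scaled to CPM. With 1 library per group no test between groups exists. Folds compare CPM, and calls use a 2-fold difference of CPM + 1 at 20 CPM or more in either sum. A zero sum is given a floor of 3 UMIs. Thinned values draw 2000 UMIs per cell with a fixed seed.

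The 9 members and the gene lists were chosen with earlier results of these data known. Named genes were all members, up to 3 genes a list and direction with the largest called difference, and the 3 genes most alike each member; some items are not reported here. Alternatives tried were scaling by TMM or by median of ratios, a 1 CPM filter, a 5 CPM pseudocount, kept doublets, 10% mitochondrial UMIs, 2000 UMIs per cell, other class thresholds and other thinning depths. Gene positions came from GENCODE M21 and promoter sequences from RefSeq. Python 3.11.15, numpy 2.4.6, scipy 1.17.1, pandas 2.3.3, scikit-learn 1.9.0, scikit-image 0.26.0 and matplotlib 3.10.9 were used, and the scripts were tested on simulated data.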

Additional observations from a re-analysis of the deposited data

Results flagged for a closer look

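Sox2 differed between the Pou4f3-positive and Epcam-positive cells in opposite directions in 2 libraries. On the log2 scale of CPM + 1 the difference was 4.72 in expansion and -2.06 on day 5. Seen over time, Sox2 was 3.89 higher on day 5 than in expansion in the Epcam-positive cells and moved by -2.89 in the Pou4f3-positive cells. Sox9 also moved in opposite directions, by -1.71 from expansion to day 25 in Pou4f3-positive cells and by 1.15 in Otor-high cells. In each case the only library of a group moved one way in one class and the other way in the other class, so the difference between the classes was not tested.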

How the results depend on the processing

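Of 55 called member differences none changed direction under the alternatives run. Calls taken away or added are counted only over members tested in the main run, so a member first tested under an alternative is left out. Over time in Pou4f3-positive cells, Gata2 with kept doublets was such a member, at 0.603, 34.8 and 6.15 CPM in the 3 libraries. TMM scaling took away 4 calls and added 5, median of ratios scaling 4 and 4, kept doublets 5 and 0, and 10% mitochondrial UMIs 2 and 1. A threshold of 1 UMI took away 12 of 48 calls and added 2, and one of 3 UMIs took away 1 and added 1. Among members tested in the main run, no call changed with a 5 CPM pseudocount, cells of 2000 UMIs or more, other Otor thresholds, or without shared barcodes. The last of these alternatives was chosen after seeing the data, as were all those of the comparisons added then. Levels in Otor-high cells did move. On day 5 their Gata3 was at 84.9 CPM with Otor at 5 in 10000 and 35.6 CPM at 20, in place of 51.8 CPM. It was at 30.7 CPM in those with fewer than 2 Epcam UMIs, where no call changed either. Sox9 was at 101, 94.7 and 93.6 CPM under the same settings, in place of 96.3 CPM. Counts of called members moved by over 1.5 times as follows. From day 5 to day 25, TMM gave 3 in all cells and 2 in Epcam-positive cells, and median of ratios gave 2 in each, in place of 1. With a 1 CPM filter, which tests more members, the counts were 3 in all cells, 2 in Epcam-positive, 5 in Pou4f3-positive and 6 in Otor-high cells. That filter also gave 4 in Otor-high cells from expansion to day 5, 6 in all cells and 3 in Otor-high cells from expansion to day 25, and 7 between Pou4f3-positive and Epcam-positive cells in expansion. Kept doublets gave 2 in Otor-high cells from expansion to day 5. The 1 UMI threshold gave 3 in Pou4f3-positive cells from expansion to day 5 and 5 from day 5 to day 25. Between Pou4f3-positive and Epcam-positive cells it gave 1 in expansion and 2 on day 5. Beyond the fewer or added members tested, the cause was not tested. The share of all genes past the bound is not given for these settings, so these counts are no result about the members. TMM moved the median of all genes by -0.32, -0.27 and -0.59 (log2) in all cells over the 3 steps, by -0.18, -0.20 and -0.40 in Epcam-positive cells, by -0.42, -0.27 and -0.72 in Otor-high cells, and by at most 0.14 in size in Pou4f3-positive cells. The share of called genes that were higher went with it from 66.3%, 78.4% and 78.6% to 40.1%, 54.3% and 43.6% in all cells, from 57.3%, 77.5% and 72.0% to 44.0%, 56.8% and 46.1% in Epcam-positive cells, and from 80.8%, 76.7% and 84.3% to 47.5%, 48.0% and 44.2% in Otor-high cells. No paired analysis was possible because each group is 1 library. The 120 Pou4f3-positive cells of expansion limit every value that uses them, and Prox1 and Pax2 rest on few UMIs in most classes.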

Other observations

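Cell classes changed in size between the libraries. Pou4f3-positive cells were 0.474% of kept cells in expansion, 2.33% on day 5 and 25.1% on day 25, while Otor-high cells were 16.4%, 35.3% and 7.90%. Otor-high cells also held GATA and LMO genes outside the 9 members. On days 5 and 25 their Gata6 level was 39.4 and 64.7 CPM, against 0.89 and 4.35 CPM in Epcam-positive cells. Lmo2 was at 45.4 and 59.6 CPM, against 0.50 and 0.32 CPM.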
